A study of Homo sapiens with 12 samples.

Results

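Gene expression was compared between HK2 cells that were given TNF-α and then propionate, the group called TNPR, and HK2 cells given TNF-α alone, the group called TN. The members are 4 of the 12 mRNA libraries of the study, chosen by their treatment labels: TNPR1 and TNPR2, and TN1 and TN2, 2 biological replicates in each group. HK2 cells are an established line that derives from the human proximal tubule, the segment of the nephron that reabsorbs most of the filtrate. TN cells received TNF-α at 5 ng/mL for 3 h. TNPR cells received TNF-α at 5 ng/mL and, 3 h later, sodium propionate at 15 mM for 24 h. 3 further groups serve here as comparisons: Ctrl, which was not treated; PRTN, which had propionate at 15 mM for 24 h before TNF-α at 5 ng/mL for 3 h; and TNBU, which had TNF-α first and then butyrate at 3 mM for 24 h. All libraries came from 1 cell line and so from 1 donor, and p-values measure the spread between these libraries only. The comparison asks what a short-chain fatty acid (SCFA) does to the RNA of tubular cells once an inflammatory stimulus has already begun.

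TNF-α is a cytokine that binds the receptors TNFRSF1A and TNFRSF1B and, through adaptors and the IκB kinase complex, releases NF-κB from its IκB inhibitors. NF-κB then switches on chemokines, cytokines and adhesion molecules, and also its own brakes, among them the IκB genes and TNFAIP3, so that the response rises early and later declines. Propionate and butyrate are bacterial fermentation products that cells use as fuel, that bind G protein-coupled receptors and that inhibit class I and II histone deacetylases, enzymes that remove acetyl groups from histones.

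TNPR cells were collected 24 h later after TNF-α than TN cells, and a group that had TNF-α and then 24 h without an SCFA was not analysed here, so that propionate and the time after TNF-α cannot be told apart in any value of TNPR against TN. Whether TNF-α was washed out before propionate is not given in the sources used here. In cultures measured in bulk, fewer cells of a kind and less RNA per cell cannot be told apart either. The 12 libraries held 27269986 to 33851130 expected counts. Levels are given as CPM, the counts of a gene relative to the library total, scaled by the trimmed mean of M values (TMM). TNPR cells carried the tubular factor PAX8 and the keratins KRT8, KRT18 and KRT19, and of the 12 renal epithelial markers all 12 were measured, with a summed level of 2700.1 and 2813 CPM in TN1 and TN2 and 2377 and 2471 CPM in TNPR1 and TNPR2. On the first principal component, which held 84.2% of the variance, TNPR lay at 47.4 and 57.4, PRTN at 49.8 and 48.9, and TN at -79.7 and -78.1. Reads from mitochondrial genes made up 9.46% of TNPR1 and 7.55% of TNPR2, within 5.86% to 9.46% over all libraries.

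The response covered much of the transcriptome. Of 24342 genes tested, 6067 were higher in TNPR than in TN (24.9%) and 4117 were lower (16.9%), called at a fold change over 1.5 and a limma-voom adjusted p under 0.05. Of these, 4715 rose and 2290 fell over 2-fold, and 2953 rose and 613 fell over 4-fold. The direction differed by level of expression. Among 9479 genes with a mean under 1 CPM in TN and TNPR, 2574 rose and 551 fell. Among 10176 genes over 10 CPM, by contrast, 1754 rose and 2595 fell. The filter for tested genes used the geometric mean over all 12 libraries, most of them with an SCFA. Genes silent without an SCFA thus passed it more easily than genes silent with an SCFA. With the geometric mean taken without adding 1, which leaves out genes with any 0, 4409 genes were higher and 4031 lower. With edgeR's filterByExpr they were 5150 and 4125. Long non-coding RNA genes held 1194 rises and 549 falls among 4906 tested, and protein-coding genes 4448 and 3244 among 15934. The median log2 fold change over all genes tested was 0.12 with TMM and 0.29 with library size alone, and with library size alone the calls were 7232 higher and 3132 lower, so that 69.8% of calls were rises in place of 59.6%. These 24.9% and 16.9% of all genes are the background for every count of list members in TNPR against TN below, also where not repeated. The shares changed with level: 27.2% rose and 5.8% fell under 1 CPM, 37.1% and 20.7% at 1 to 10 CPM, and 17.2% and 25.5% over 10 CPM. The background was not matched to the level of a list, so that lists of abundant or of near-silent genes differ from it in part by level.

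**Figure D1:**
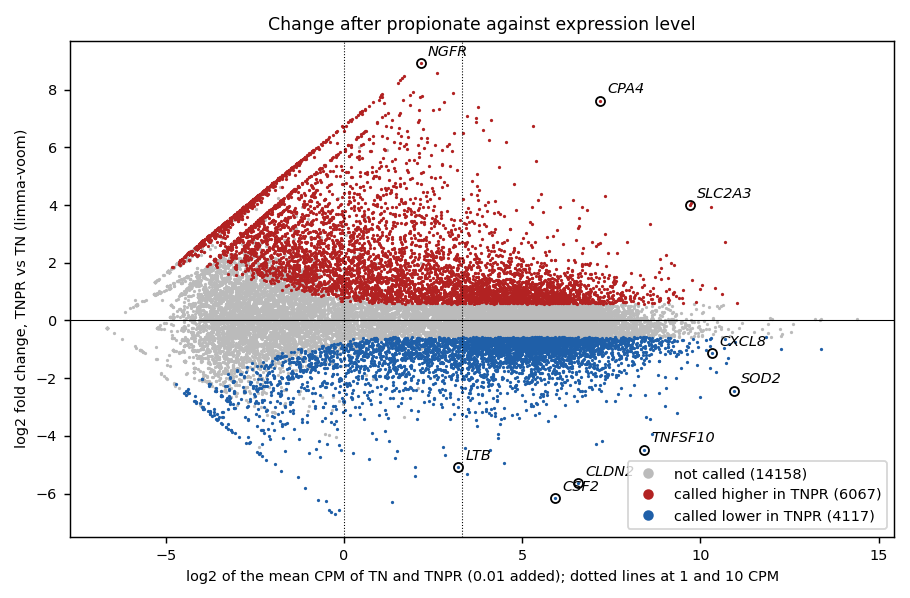
The log2 fold change of TNPR against TN (vertical axis, limma-voom) is plotted against the log2 of the mean CPM of both groups (horizontal axis) for the 24342 genes tested, 1 point per gene, red where called higher (6067), blue where called lower (4117) and grey where not called, with dotted lines at 1 and 10 CPM. Under 1 CPM the rises (2574) outnumber the falls (551), and over 10 CPM the falls (2595) outnumber the rises (1754), with CSF2 and CLDN2 among the deepest falls.

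The 16 inflammatory genes that the study names for HK2 cells were all lower in TNPR than in TN, with a median log2 fold change of -2.93. They were chosen by the study on these same samples, and their direction is therefore no independent evidence. In TN against Ctrl 15 of the 16 were higher, beside 0.764% of all genes, with a median of 1.02, and that comparison shares the TN libraries with TNPR against TN. TNPR against Ctrl had 15 of the 16 lower and none higher, with a median of -1.76, beside 16.8% of all genes lower. The study looked for genes that TNF-α induced over Ctrl and that were not increased over Ctrl with an SCFA, so that the absence of higher members follows in part from the choice. CXCL8 was the member that did not differ from Ctrl by the fold threshold.

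The deepest fall among all protein-coding genes eligible for naming was that of CSF2, which encodes GM-CSF, a growth factor for granulocytes and macrophages. CSF2 lies on chromosome 5 (GRCh38, 132073789 to 132076170). It was at 119 and 118 CPM in TN1 and TN2 and at 3.79 and 0.672 CPM in TNPR1 and TNPR2. Both TNPR libraries were far below both TN libraries and below Ctrl at 48.8 and 51.1 CPM, and TNPR1 was several-fold above TNPR2 (log2 fold change -6.15 ± 0.41, limma-voom adjusted p = 7.58e-08). LTB, lymphotoxin beta, a membrane ligand of the TNF superfamily, went from 17.5 and 18.3 to 0.681 and 0.384 CPM (-5.08 ± 0.27, adjusted p = 1.35e-08). VCAM1, an adhesion receptor for leukocytes, went from 7.89 and 7.47 to 0.237 and 0.192 CPM (-5.07). Neither gene overlapped between the groups, which the rule for naming the largest falls required. TNFSF10, the death ligand TRAIL, was at 657 and 652 CPM in TN and 44.8 and 19.1 CPM in TNPR (-4.47), and CSF1, the growth factor of macrophages, at 271 and 298 and 18.2 and 13.5 CPM (-4.17). Both were abundant in TN and low in each TNPR library, again with TNPR1 the higher of the pair.

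Of 19 TNF receptors, adaptors and kinases, the first steps of the pathway, 2 rose and 2 fell (median log2 fold change -0.06), beside 24.9% and 16.9% of all genes, and no gene of the IκB kinase complex was called. Both receptors were called, in opposite directions. TNFRSF1B, the inducible receptor, was at 0.894 and 1.26 CPM in TN and 10.5 and 9.15 CPM in TNPR (3.19 ± 0.24, limma-voom adjusted p = 2.51e-07). TNFRSF1A, the death domain receptor present on most cells, was at 92 and 101 CPM in TN and 63.5 and 51.2 CPM in TNPR (-0.75 ± 0.11, adjusted p = 4.89e-05). TNFRSF1A lost its call with library size alone (-0.58). Among the adaptors, TRADD, which binds the death domain of TNFRSF1A, rose (0.69) and TRAF5 fell (-0.7, not called with library size alone at -0.52). BIRC3, a ubiquitin ligase of the receptor complex, was at 504 and 469 CPM in TN and 702 and 668 CPM in TNPR, which did not reach the fold threshold (0.5), though with library size alone it did (0.67). All 4 of these BIRC3 values were above Ctrl at 240.3 and 236 CPM.

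Of 11 NF-κB subunits and IκB proteins, 5 fell and none rose (median -0.30), beside 16.9% and 24.9% of all genes. NFKB1, the precursor of the p50 subunit, was at 153 and 162 CPM in TN1 and TN2 and 31.6 and 29.8 CPM in TNPR1 and TNPR2. Those TNPR values lay under Ctrl at 73 and 76.2 CPM (TNPR against TN -2.36 ± 0.082, limma-voom adjusted p = 6.41e-10). NFKBIA, the inhibitor IκBα, was at 305 and 322 CPM in TN and 94.3 and 69.5 CPM in TNPR (-1.95), and NFKBID, a nuclear IκB protein, fell as well (-1.77), as did the subunit RELB (-0.79). NFKBIZ, a further nuclear IκB protein, had 614 and 556 CPM in TN against 469 and 258 CPM in TNPR (-0.74). That call rested on single libraries, since it was lost without TNPR2 (-0.32), without TN1 (-0.70) and with library size alone. RELA, the main activating subunit, had 89.8 and 94.4 CPM in TN and 91.3 and 87 CPM in TNPR, and NFKB2, the precursor of p52, had 182 and 195 and 184 and 169 CPM. For both genes the groups overlapped, and the sign turned with library size alone (0.13 and 0.075). Of 11 other brakes of the pathway, 3 fell and none rose (median -0.37). These were the deubiquitinase TNFAIP3 (A20), with 479.9 and 498 CPM in TN and 159 and 153 CPM in TNPR (-1.65), its partner TNIP1 (-1.52) and the ribonuclease ZC3H12A (-1.47). Unlike NFKB1, TNFAIP3 remained above Ctrl at 109 and 112 CPM in both TNPR libraries.

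Promoter sequence was read for the NF-κB target genes, to show where their binding motif lies in genes that fell and in genes that did not. The windows run from 250 bases before to 50 after each gene start and are credited to RefSeq (GRCh38.p14). Only the 250 bases before the start were searched, on both strands and with overlapping matches counted. The consensus was GGGRNWYYCC, with R for A or G, N for any base, W for A or T and Y for C or T. Of 35116 windows, 1828 (5.21%) held the NF-κB consensus in these 250 bases. In 50 (0.142%) they held the decamer GGGAATTTCC, the form of it that stands in the window of NFKB1. The genes with the decamer numbered 48, of which 30 were tested, and of these 7 rose and 10 fell, beside 24.9% and 16.9% of all genes. The 10 included CXCL1, CXCL2, CXCL3, NFKB1, NFKBIA and NFKBIZ, and the 7 included CXCL5. NFKB1, from which the decamer was taken, was known to fall, and CXCL1, CXCL2 and CXCL3 are close paralogs. The 10 are therefore not independent of the choice or of each other. 6 stretches around the motif are shown, 5′ to 3′ on the strand of the gene, with the bases that match the consensus in capitals: 3 genes that fell (CXCL2, NFKB1, VCAM1), 2 that rose (CXCL5, CCL20) and BIRC3, which was not called.
CXCL2: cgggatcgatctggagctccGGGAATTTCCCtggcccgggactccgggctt
NFKB1: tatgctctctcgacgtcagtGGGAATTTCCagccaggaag
VCAM1: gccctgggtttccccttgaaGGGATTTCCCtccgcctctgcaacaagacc
CXCL5: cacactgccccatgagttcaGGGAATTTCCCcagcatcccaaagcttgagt
CCL20: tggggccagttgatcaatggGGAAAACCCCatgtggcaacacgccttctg
BIRC3: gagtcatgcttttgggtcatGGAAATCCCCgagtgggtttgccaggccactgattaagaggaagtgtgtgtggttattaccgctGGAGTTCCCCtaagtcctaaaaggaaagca
They lie at chr4:74099243-74099293 on the minus strand (CXCL2), chr4:102501290-102501329 on the plus strand (NFKB1), chr1:100719660-100719709 on the plus strand (VCAM1), chr4:73998738-73998788 on the minus strand (CXCL5), chr2:227813743-227813792 on the plus strand (CCL20) and chr11:102317265-102317378 on the plus strand (BIRC3). The 6 genes were chosen so that the motif lies before every exon of the gene itself in GENCODE 44. The stretch of NFKB1 was cut 10 bases after its motif, and none of the 6 stretches overlaps an exon of its own gene. Those of NFKB1 and CXCL5 overlap an exon of a long non-coding RNA gene on the opposite strand. The motif starts 78 bases before the gene start in CXCL2, 49 in NFKB1, 62 in VCAM1, 91 in CXCL5, 79 in CCL20, and 199 and 135 in BIRC3, where there are 2. In CXCL2 and CXCL5 the capitals hold 2 matches shifted by 1 base, of which the first is the decamer. The 250 bases before the start of CXCL8, CSF2, TNFSF10, ICAM1, TNFAIP2, PLAU and EFNA1 hold no match of the consensus. No window was found by symbol for CSF1, CCL2, SAA1 and SAA2. CXCL2, which fell, and CXCL5, which rose, carry the same letters in capitals, and these letters were found with both directions of change. A match is a description of the letters and not a measured binding site.

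Chemokines, which attract leukocytes, split into falls and rises. Of 14 measured, 8 fell and 5 rose (median -1.14), beside 16.9% and 24.9% of all genes. CXCL3, an attractant of neutrophils, was at 67.2 and 70.9 CPM in TN and 11.2 and 7.01 CPM in TNPR (-2.95 ± 0.16, limma-voom adjusted p = 1.46e-08). CXCL8, interleukin 8, the most abundant of them, was at 1806 and 1712 CPM in TN and 821 and 770.4 CPM in TNPR (-1.14, adjusted p = 1.62e-08). The groups were well apart for both. CXCL2 went from 298 and 268 to 55.3 and 29.8 CPM (-2.79) and CCL2, which attracts monocytes, from 18.1 and 20.6 to 2.28 and 1.6 CPM (-3.32). CXCL1, CXCL2 and CXCL3 are close paralogs among which reads may be split, so that their single values are uncertain. CCL20, which attracts CCR6-positive lymphocytes, went the other way. Its level was 212 and 216 CPM in TN and 596 and 791 CPM in TNPR (1.68 ± 0.11, adjusted p = 6.92e-08), against 57.6 and 55.6 CPM in Ctrl. CXCL5, a further neutrophil attractant, rose from 14 and 14.3 to 25 and 26.3 CPM (0.86) and CXCL16 rose as well (0.86). CCL20, CXCL5 and CXCL16 were thus higher in both TNPR libraries than in both TN libraries.

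Cytokines and ligands of the TNF superfamily were split in the same manner. Of 22, 10 fell and 6 rose (median -0.38), beside 16.9% and 24.9% of all genes. All 4 tested members of the IL-6 family fell. IL6 itself, the acute phase cytokine, was at 112 and 109 CPM in TN and 11.7 and 10.4 CPM in TNPR (-3.32 ± 0.11, limma-voom adjusted p = 4.71e-10). CLCF1, which signals through the CNTF receptor, was at 37.8 and 38.2 CPM in TN and 2.46 and 2.05 CPM in TNPR (-4.07), LIF fell by 2.25 and IL11 by 2.88 on the log2 scale. TNF, the gene of the stimulus itself, rose: it had 11.5 and 10.8 CPM in TN and 70.6 and 31.3 CPM in TNPR (2.08 ± 0.36, adjusted p = 0.000312), against 3.02 and 3.73 CPM in Ctrl. The TNF level of TNPR1 was well above that of TNPR2, and both lay above each TN and Ctrl library. IL18, which inflammasomes process, rose from 8.75 and 8.97 to 38.3 and 41.9 CPM (2.17), and TNFSF9, the ligand of 4-1BB, from 25.7 and 29.7 to 81.3 and 64.3 CPM (1.39).

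**Figure D2:**
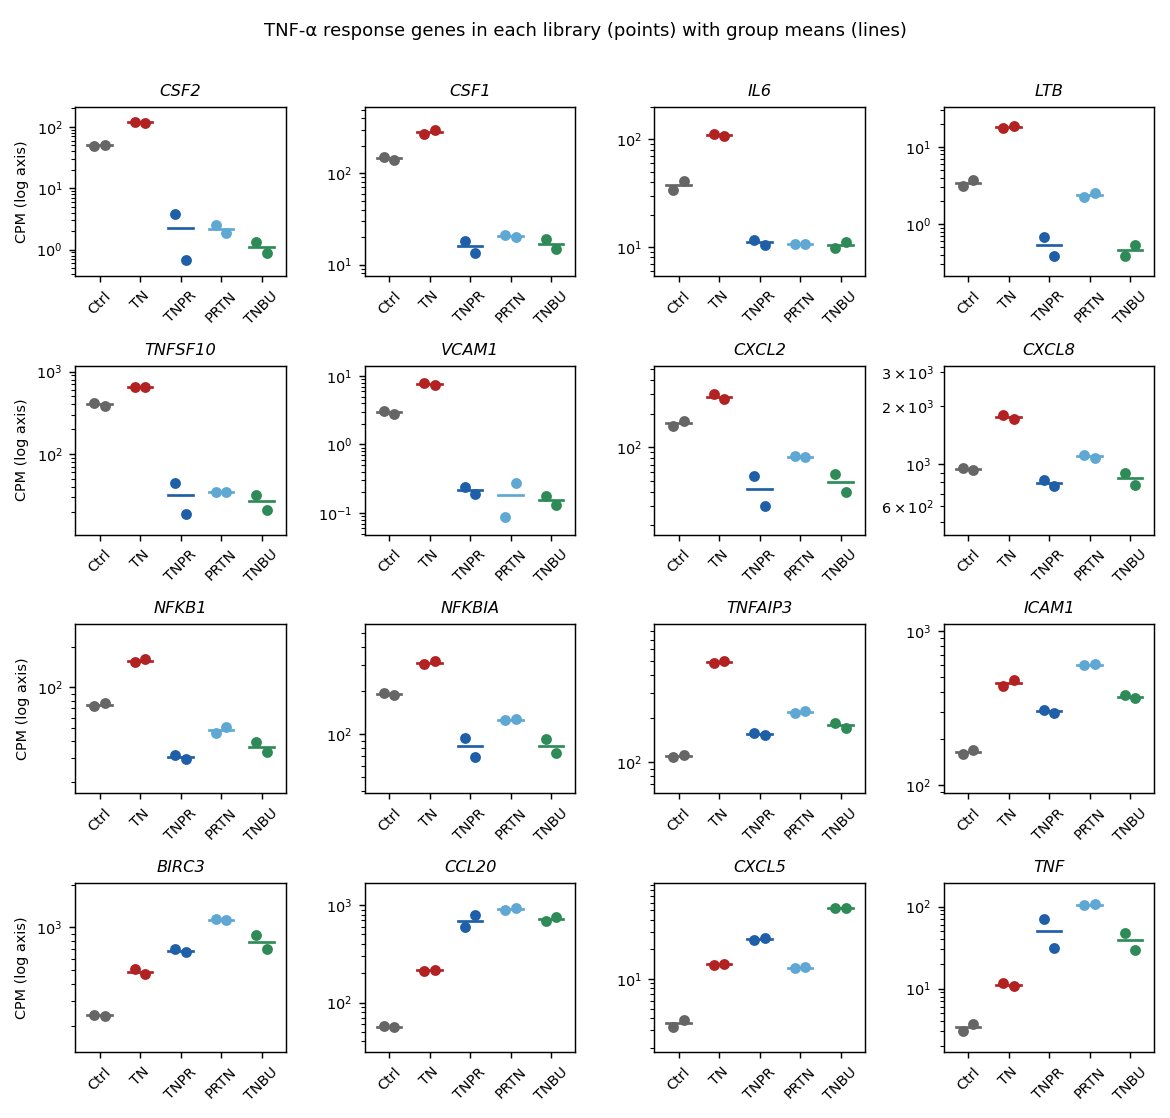
CPM on a log axis in each library of Ctrl, TN, TNPR, PRTN and TNBU (points, 2 per group, with a line at the mean) is shown for 16 genes of the TNF-α response. CSF2, CSF1, IL6, LTB, TNFSF10, VCAM1 and NFKB1 lie lower in TNPR than in Ctrl, ICAM1, BIRC3 and TNFAIP3 lie above Ctrl, and CCL20, CXCL5 and TNF lie higher in TNPR than in TN.

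Receptors for cytokines and interferons showed 6 rises and 10 falls among 22 (median -0.42), beside 24.9% and 16.9% of all genes. IL7R fell from 70.9 and 63.6 to 8.65 and 9.24 CPM (-2.91 ± 0.091, limma-voom adjusted p = 3.9e-10). IFNGR2, a chain of the interferon gamma receptor, fell by 1.66 and OSMR, the oncostatin M receptor, by 0.99 on the log2 scale. IL11RA (2.21), LIFR (1.2) and the interleukin 1 receptor IL1R1 (1.58) rose, so that within the IL-6 family some receptors rose while the ligands fell. Of 21 genes of JAK-STAT signalling, 9 fell and 4 rose (median -0.29). STAT6 had 362 and 370.2 CPM in TN and 82.8 and 64.1 CPM in TNPR (-2.33), and the kinase JAK1 had 1157 and 1127 and 431 and 408 CPM (-1.45). In contrast, STAT3, the factor downstream of IL-6, rose from 98.3 and 104 to 219.7 and 210.3 CPM (1.09), and its feedback inhibitor SOCS3 from 31.5 and 33.5 to 70.3 and 66.6 CPM (1.07). These JAK-STAT genes were named for small adjusted p, so that the lack of overlap between their groups follows in part from the choice. Among 40 interferon-stimulated genes, 18 fell and 6 rose (median -0.42), beside 16.9% and 24.9% of all genes. The guanylate-binding proteins GBP1 (39.2 and 36.2 CPM in TN, 2.62 and 2.27 CPM in TNPR, -3.94) and GBP3 (-2.58) fell, as did PARP14 (-1.98). IFI6 rose from 5.55 and 6.46 to 38.7 and 39.8 CPM (2.71) and the ubiquitin-like modifier ISG15 from 12.8 and 16 to 38.1 and 37.4 CPM (1.4).

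Adhesion and costimulatory molecules had 3 rises and 6 falls among 10 (median -0.92), beside 24.9% and 16.9% of all genes. CD40, a costimulatory receptor, fell from 167 and 175 to 49.3 and 52.7 CPM (-1.75 ± 0.063, limma-voom adjusted p = 7.3e-10). ICOSLG (-2.8) and the hyaluronan receptor CD44 (-1.52) fell also. ICAM1, which binds leukocyte integrins, was at 437 and 478 CPM in TN and 308 and 295 CPM in TNPR, just past the fold threshold (-0.6). The call of ICAM1 was lost without TN2 (-0.57), without TNPR2 (-0.57) and with library size alone (-0.43). Both TNPR libraries stayed above Ctrl at 159 and 169 CPM. CD274, the checkpoint ligand PD-L1, rose from 3.61 and 3.66 to 13.6 and 25.1 CPM (2.33 ± 0.36, adjusted p = 0.000129), with TNPR2 the higher, and ICAM2 rose (2.07).

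By size of the change and at 5 CPM or more in the higher group, the 15 largest falls were those of CSF2, LTB, VCAM1, TNFSF10, CSF1, CLCF1 and GBP1, given above, and of 8 other genes. CLDN2, the cation-conducting claudin of the proximal tubule, was at 178 and 192 CPM in TN and 8.24 and 1.57 CPM in TNPR (-5.64 ± 0.43, limma-voom adjusted p = 2.71e-07). CDH6, a cadherin of renal epithelium, was at 744 and 755 CPM in TN and 61.9 and 37.9 CPM in TNPR (-3.95 ± 0.16). ENPP3, an ectonucleotidase, was at 255 and 251 and 16.9 and 9.69 CPM (-4.29). All 3 fell from high levels and were lower in TNPR2 than in TNPR1. UGT2B7, a glucuronosyltransferase, went from 33 and 32.1 to 2.1 and 0.927 CPM (-4.51), and CLEC4E, a lectin receptor of innate immunity, from 43.3 and 42.8 to 2.28 and 0.832 CPM (-4.92). SERPINB8, a protease inhibitor, had 24.7 and 24.9 CPM in TN and 1.9 and 1.98 CPM in TNPR (-3.66). Absence of overlap between the groups was a condition for naming these 15 falls. TMEM265 (5.68 and 4.38 to 0.641 and 0.0307 CPM, -4.78) was not called by DESeq2, and ZACN, a zinc-activated channel (8.15 and 17.9 to 0.824 and 0.376 CPM, -4.39, adjusted p = 0.0124), lost its call without TNPR1 (-5.00) and without TNPR2 (-3.86).

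The largest rises were mostly of genes at or close to 0 in TN, many of them known from neurons. The nerve growth factor receptor NGFR had no count in TN1 or TN2 and 7.91 and 9.85 CPM in TNPR1 and TNPR2, at least 80.9-fold higher than a floor of 3 counts per library (0.11 CPM). On the same basis the kinase PRKCB was at least 58.9-fold, the neuronal RNA-binding protein ELAVL3 at least 56.3-fold, the alkaline phosphatase gene ALPPL2 at least 54.4-fold and RFPL4A at least 52.2-fold higher. ALPPL2 and RFPL4A have near-identical paralogs and are uncertain as single genes. Both tested alkaline phosphatase genes of 3 listed rose. In all, 946 of the genes called higher had no count in either TN library, 529 of them protein-coding genes with a symbol. Such genes passed the filter only through other libraries, so that a rise was their only possible direction. With counts in TN, NRXN2, a presynaptic adhesion protein, went from 0.0372 and 0 to 12.2 and 12.1 CPM (8.59 ± 0.66), the calcium channel CACNA1G from 0.0745 and 0.0359 to 16.9 and 16.2 CPM (7.87) and the vesicular glutamate transporter SLC17A7 from 0.186 and 0.108 to 25.4 and 28.3 CPM (7.39). CPA4, a carboxypeptidase first described as induced by histone deacetylase inhibitors, reached the highest level of the group, 228 and 355 CPM in TNPR against 1.34 and 1.51 CPM in TN (7.62 ± 0.59, limma-voom adjusted p = 2.87e-07). The others of the 15 were SNCB, SPANXN3, ADAM33, LGI3, the bone morphogenetic protein BMP6 and the tetraspanin CD9, with log2 fold changes of 7.82, 7.77, 7.73, 7.46, 7.63 and 7.92. Fitted values of genes so near 0 in TN depend on the count added before taking logarithms.

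Most of the neuronal genes rose, on a list chosen with earlier results of these data known. Of 30 tested neuronal genes 25 rose and none fell (median 2.73), beside 24.9% and 16.9% of all genes. Among those of exocytosis 19 of 20 rose. A neuronal gene without a count in TN could be tested only through other libraries, so that a rise was its only possible direction. UNC13A, which primes synaptic vesicles, went from 3.28 and 4.16 to 59 and 47.3 CPM (3.83 ± 0.22, limma-voom adjusted p = 1.95e-08), and the calcium sensor SYT7 (3.66) and the vesicle protein SYN1 (4.24) also rose. Ephrins, semaphorins and other axon guidance genes had 19 rises and 5 falls among 33 (median 1.33). EFNB2 rose from 17.8 and 16.6 to 75.3 and 92.8 CPM (2.28), with SEMA6C (3.37) and SLIT2 (3.74). EFNA1, a ligand that TNF-α is known to induce, fell from 69.3 and 78.1 to 20.1 and 15.7 CPM (-2.05), and the ephrin receptor EPHB2 fell (-1.47).

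Of 28 histone deacetylases and partners, 7 rose and 6 fell (median 0.01), beside 24.9% and 16.9% of all genes. The class I enzyme HDAC3 rose from 75.1 and 76.5 to 159.8 and 163 CPM (1.09 ± 0.057, limma-voom adjusted p = 1.1e-08). SIRT2, a NAD-dependent deacetylase, rose from 14.7 and 15.3 to 49.4 and 54.4 CPM (1.78), and the class II enzyme HDAC5 rose (1.53). HDAC7 fell from 129.9 and 137 to 37.7 and 31.6 CPM (-1.95), and the mitochondrial SIRT5 fell (-1.61). With library size alone the falls numbered 3. Histone acetyltransferases and readers of acetylated histones moved more in 1 direction, with 20 falls and 1 rise among 37 (median -0.81). The acetyltransferase KAT6B fell from 39 and 37.4 to 9.24 and 9.06 CPM (-2.06 ± 0.086), BRPF3, a scaffold of acetyltransferase complexes, from 87.6 and 89.5 to 32.7 and 32.8 CPM (-1.43), and KAT5 fell (-1.18). The single rise, NCOA3 (0.63), was lost without TNPR1 (0.54). Of 19 histone genes with polyadenylated transcripts 2 rose and 6 fell, with 4 rises under library size alone. The variant macroH2A2, listed as H2AFY2, fell from 58.2 and 63.9 to 8.74 and 5.69 CPM (-3.1).

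Genes of cell division fell for mitosis and not for DNA replication. All but 3 of 20 mitotic genes fell and none rose (median -1.15), whereas of 20 replication genes 3 rose and 3 fell (median -0.09). The mitotic kinase AURKA was at 187 and 173 CPM in TN and 49.4 and 51.1 CPM in TNPR (-1.84 ± 0.061, limma-voom adjusted p = 4.71e-10), and CCNB1 (-1.74) and PLK1 (-1.59) fell with it. RRM2, a subunit of ribonucleotide reductase, rose from 295 and 269 to 496 and 567 CPM (0.91). Of 22 regulators of G1, 6 rose and 8 fell (median -0.13), beside 24.9% and 16.9% of all genes. CDKN1A, the inhibitor p21, rose from 38.9 and 38.3 to 227 and 234 CPM (2.58 ± 0.066, adjusted p = 1.05e-10). CDKN2B, the inhibitor p15, went the other way, from 58.4 and 56.4 to 18.5 and 17.4 CPM (-1.67), and the kinase CDK4 fell (-0.81). Of 30 regulators of apoptosis, 4 rose and 11 fell (median -0.43). CFLAR, which blocks caspase 8 and is a known NF-κB target, fell from 153 and 155 to 34.9 and 38.7 CPM (-2.07), and the caspase 8 substrate BID fell (-1.68). Without TNPR1 the rises numbered 2, with BCL2L11 (0.67) among those lost (0.55).

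Matrix genes rose more often than they fell. Of 27 collagens, 15 rose and 5 fell (median 1.26), beside 24.9% and 16.9% of all genes. Fibrillar collagens held 6 rises among 8, with COL1A1 going from 39.6 and 43.2 to 179 and 146 CPM (1.97 ± 0.092, limma-voom adjusted p = 4.64e-09), and COL12A1 rose (1.94). The abundant basement membrane pair COL4A1 and COL4A2 fell instead. COL4A1 had 2409.7 and 2550.4 CPM in TN and 871 and 895 CPM in TNPR (-1.49), and COL4A2 had 2035 and 2221 and 1113 and 1073 CPM (-0.96), both well clear of the spread between replicates. Of 23 metalloproteinases and inhibitors, 14 rose and 6 fell (median 1.39). ADAMTS3, a procollagen peptidase, rose from 35.7 and 35.1 to 265 and 304 CPM (3.0 ± 0.099, adjusted p = 4.51e-10), and ADAMTS6 (2.98) and MMP11 (1.91) rose. MMP7, matrilysin, a protease of injured tubules, fell from 885 and 939 to 174 and 76.6 CPM (-2.98), with TNPR2 the lower. The membrane collagenase MMP14 fell from 218 and 245 to 74 and 73.8 CPM (-1.64) and the aggrecanase ADAMTS9 fell (-2.39).

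Of 34 regulators of fibrosis and of epithelial-mesenchymal transition, 11 rose and 8 fell (median -0.02), beside 24.9% and 16.9% of all genes. The repressor of epithelial genes ZEB2 fell from 67.5 and 62.1 to 12.3 and 12.7 CPM (-2.37 ± 0.094, limma-voom adjusted p = 1.35e-09), and the collagen cross-linking enzyme LOX (-1.47) and FN1, fibronectin, fell. FN1 went from 13458 and 14583 to 7917 and 6401 CPM (-0.98). E-cadherin, CDH1, rose from 0.0745 and 0.144 to 10.8 and 9.08 CPM (6.34) and the tight junction gene TJP3 rose (3.37), but so did SNAI1 (1.64), itself a repressor of CDH1. The plasminogen and coagulation genes had 3 rises and 4 falls among 9 (median -0.49), and both plasminogen activators were called, in opposite directions. PLAU, urokinase, fell from 322 and 352 to 48.7 and 48.3 CPM (-2.79 ± 0.063, adjusted p = 7.06e-11). PLAT, the tissue-type activator, rose from 11.6 and 13.9 to 105 and 122 CPM (3.15 ± 0.10, adjusted p = 4.51e-10). TFPI, the inhibitor of tissue factor, fell from 53.9 and 55.4 to 5.39 and 4.99 CPM (-3.39). Of 14 complement genes 1 rose and none fell (median -0.06). SERPING1, the inhibitor of C1, was the rise (5.66), a further one appeared without TN2, without TNPR1 or with library size alone, and without TNPR2 1 fell. Of 14 genes of the prostaglandin pathway 7 rose and 4 fell (median 1.47), with the constitutive cyclooxygenase PTGS1 going from 7.15 and 6.03 to 85.3 and 94.6 CPM (3.77) and the degrading enzyme HPGD rising (2.22).

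Markers of tubular injury and of tubular identity were both split. Of 11 injury genes, 6 rose and 4 fell (median 1.56), beside 24.9% and 16.9% of all genes. The acute phase protein SAA1 rose from 147 and 159.5 to 2131 and 2611 CPM (3.94 ± 0.11, limma-voom adjusted p = 1.34e-10) against 154 and 147 CPM in Ctrl, and its near-identical paralog SAA2, with which it shares reads, rose alongside (4.07). LCN2, the urinary injury marker NGAL, went from 153 and 166 to 468 and 473 CPM (1.56 ± 0.058, adjusted p = 8.73e-10), and the chaperone CLU from 14 and 16.9 to 275 and 338 CPM (4.3). HAVCR1, the injury marker KIM-1, fell from 194 and 202 to 54.3 and 40.5 CPM (-2.08 ± 0.15, adjusted p = 1.41e-07), and SPP1, osteopontin, from 349.7 and 360.3 to 113 and 104 CPM (-1.71). Thus the usual pair of injury markers, NGAL and KIM-1, went opposite ways. Of 21 genes of tubule identity and transport 9 rose and 4 fell (median 0.78). The water channel AQP1 rose from 0.447 and 0.431 to 6.63 and 5.98 CPM (3.79) and alkaline phosphatase ALPL from 0.67 and 0.933 to 8.83 and 8.48 CPM (3.42). The factor PAX8 fell from 392 and 414 to 152 and 145 CPM (-1.44), and the brush border enzyme GGT1 (-1.6) fell. Of 7 genes around Klotho and vitamin D, 4 rose and 2 fell (median 0.81). KL, which encodes Klotho, the co-receptor of FGF23, fell from 4.24 and 4.7 to 0.80 and 0.864 CPM (-2.41 ± 0.24, adjusted p = 2.28e-06). CYP24A1, which breaks down vitamin D, rose from 63.6 and 65 to 393 and 451 CPM (2.71), with the receptor VDR (1.6), while CYP27B1, which activates vitamin D, fell (-1.08).

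Genes for sensing, uptake and use of propionate were mostly not called. Of 9 tested SCFA receptors and transporters of 13 listed, 1 rose and 1 fell (median -0.18), with 2 falls without TN2 or without TNPR2. The rise was that of BSG, the chaperone of monocarboxylate transporters, from 459.7 and 527 to 851 and 851 CPM (0.79), and the fall that of the transporter SLC16A4 (-1.09). SLC16A1, the main transporter MCT1, had 340.1 and 342 CPM in TN and 282 and 298 CPM in TNPR and was not called. Of 13 genes of propionate breakdown 3 rose and 2 fell (median 0.11), beside 24.9% and 16.9% of all genes, with 5 rises under library size alone. ACSS2, a cytosolic acyl-CoA synthetase, rose from 30.6 and 30.8 to 59.6 and 58.9 CPM (0.95), and its mitochondrial relative ACSS1 fell (-1.29). PCCA and PCCB, the subunits of propionyl-CoA carboxylase, were not called, PCCA with 11.7 and 11.7 CPM in TN and 15.3 and 14.9 CPM in TNPR.

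In fatty acid oxidation 6 of 24 genes rose and 1 fell (median 0.30), with 3 falls without TNPR1 and 2 without TN1 or without TN2. The nuclear receptor PPARD rose from 24.2 and 24 to 76.8 and 74 CPM (1.65 ± 0.070, limma-voom adjusted p = 2.3e-09) and its partner PPARGC1A, a coactivator of mitochondrial genes, fell from 113 and 105 to 36.2 and 28.1 CPM (-1.77). Cholesterol synthesis and sterol regulation had 4 rises and 5 falls among 32 (median -0.05), 7 and 3 with library size alone. MYLIP, a ubiquitin ligase of sterol regulation, rose (1.85). Glycolysis and glucose uptake had 6 rises and 5 falls among 26 (median -0.18). Beside each of these lists stand the 24.9% of all genes that rose and the 16.9% that fell. SLC2A3, the high-affinity glucose transporter GLUT3, stood out with 99.1 and 97.1 CPM in TN and 1483 and 1667 CPM in TNPR (4.0 ± 0.074, adjusted p = 1.93e-11), while TPI1, an enzyme of the pathway itself, fell (-0.89).

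Antioxidant genes under NRF2 had 12 rises and 6 falls among 30 (median 0.38), beside 24.9% and 16.9% of all genes. The extracellular peroxidase GPX3, made mostly by the proximal tubule, rose from 35.6 and 42.4 to 226 and 258 CPM (2.64 ± 0.10, limma-voom adjusted p = 1.27e-09). SOD2, the mitochondrial superoxide dismutase and a known NF-κB target, fell from 3292 and 3281 to 637 and 584 CPM (-2.43 ± 0.066, adjusted p = 1.19e-10), under the 1313 and 1327 CPM of Ctrl. NQO1 (-1.73) and KEAP1, the inhibitor of NRF2 (-1.57), fell too. Genes of the unfolded protein and integrated stress responses had 3 rises and 10 falls among 30 (median -0.24). XBP1 fell from 102 and 102 to 23.8 and 21.2 CPM (-2.18), ATF4 from 351 and 337 to 148 and 131 CPM (-1.3) and ATF5 by 3.07 on the log2 scale. The rise of ATF3, from 72.5 and 43.1 to 171 and 77.7 CPM (1.05), was lost without TNPR1 (0.43) and without TN2 (0.64), and that of SDF2L1 (0.67) without TN1 (0.50). Of 8 metallothioneins 4 rose and 1 fell (median 1.04), although these genes share reads with each other.

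**Figure D3:**
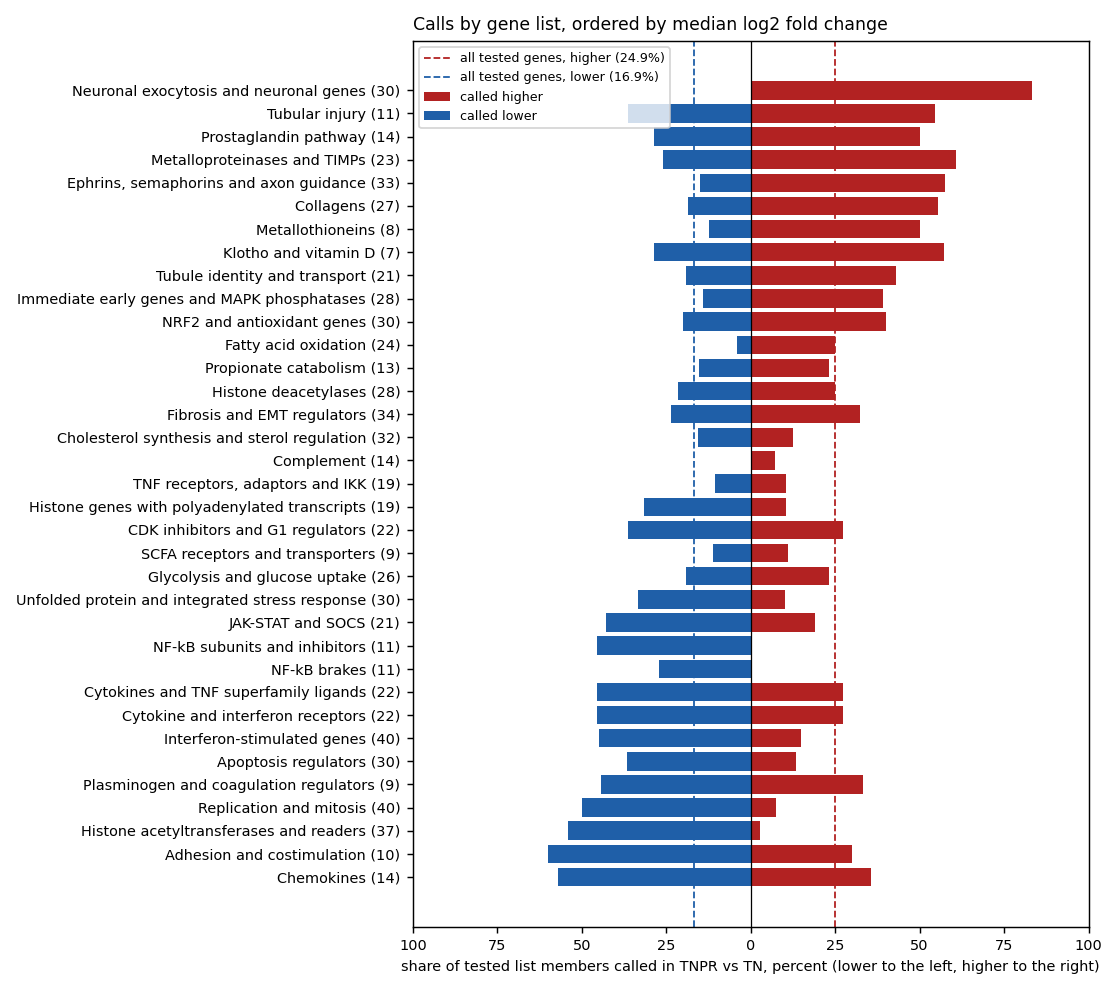
For each gene list with 7 or more tested members, cell type markers left out, bars give the percentage of members called higher (red, to the right) and lower (blue, to the left) in TNPR against TN, in order of the median log2 fold change, with the number of members tested in brackets and dashed lines at the 24.9% and 16.9% of all genes. Neuronal genes, tubular injury genes and the prostaglandin pathway have the highest medians of the lists shown, and chemokines, adhesion molecules and acetyltransferases the lowest.

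Against untreated cells TNPR differed in about as many genes as against TN, with 5740 higher (23.6%) and 4088 lower (16.8%). Genes with large changes against TN were also away from Ctrl. CLDN2 was at 200.3 and 179.9 CPM in Ctrl (TNPR against Ctrl -5.68), CPA4 at 1.75 and 1.54 CPM (7.41) and SLC2A3 at 114 and 132 CPM (3.68). Among the inflammatory genes LTB (-2.67), CSF2 (-4.91), TNFSF10 (-3.77) and IL6 (-1.77) were lower than in Ctrl. Higher than in Ctrl were CCL20 (3.6), TNF (3.81), BIRC3 (1.52) and ICAM1 (0.88). PTX3, the pentraxin that TNF-α induces, had 75.4 and 41.5 CPM in TNPR against 62.2 and 65.6 CPM in Ctrl and was not called (-0.19), with 1 TNPR library above and 1 below both Ctrl libraries. In TN against Ctrl 186 genes were higher (0.764%) and 130 lower (0.534%).

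Propionate after TNF-α was compared with propionate before TNF-α, to test whether the order mattered. Both groups had propionate for 24 h, but PRTN was collected 3 h after TNF-α and TNPR later, so that order and time after TNF-α cannot be told apart. 13 genes were higher (0.0534%) and 26 lower (0.107%) in TNPR than in PRTN. Of the 26 lower genes, 13 (50%) were also among the 186 genes higher in TN than in Ctrl, which makes 6.99% of that list, and 1 of the 13 higher genes (7.69%, 0.538% of the list), CXCL5, was. The 2 comparisons share no library. The counts depended on single libraries: they were 28 higher and 46 lower without TNPR1, 9 and 7 without TNPR2, 5 and 2 without PRTN1, and 11 and 27 without PRTN2.

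Among the genes lower in TNPR, ICAM1 was at 308 and 295 CPM in TNPR and 597 and 611 CPM in PRTN (-1.0 ± 0.060, limma-voom adjusted p = 1.14e-05). PLAU was at 48.7 and 48.3 CPM in TNPR and 78.2 and 83.1 CPM in PRTN (-0.73 ± 0.067, adjusted p = 0.00049). BIRC3 was at 702 and 668 CPM in TNPR and 1141 and 1119 CPM in PRTN (-0.72 ± 0.079, adjusted p = 0.00273), a call lost without PRTN1 (-0.71). The groups did not overlap for any of the 3, as the naming rule required, and the TNPR pairs were close together. TNFAIP2 and PTX3, both induced by TNF-α, had the largest differences of the lower genes named by rule. TNFAIP2 was at 144 and 66.4 CPM in TNPR and 292 and 298 CPM in PRTN (-1.59 ± 0.27, adjusted p = 0.038), and PTX3 at 75.4 and 41.5 and 166 and 172 CPM (-1.59 ± 0.23, adjusted p = 0.0149). Both had a wide spread in TNPR, and both calls were lost without TNPR2 (-1.04 and -1.16), without PRTN1 (-1.61 and -1.62) or without PRTN2 (-1.58 and -1.56). CXCL3 (11.2 and 7.01 and 17.1 and 18.2 CPM, -0.98) and EFNA1 (20.1 and 15.7 and 27.9 and 30.6 CPM, -0.71) were lost in these 3 cases too, at -0.65, -1.03 and -0.93 for CXCL3 and at -0.54, -0.78 and -0.65 for EFNA1. CXCL3 and TNFAIP2 were also not called by edgeR's quasi-likelihood test (-0.95 and -1.49). In those 3 cases the call was lost for NFKB1 as well (31.6 and 29.8 and 46.5 and 51.2 CPM, -0.67), at -0.62, -0.74 and -0.60. The riboflavin transporter SLC52A3 (3.58 and 3.68 and 7.03 and 5.99 CPM, -0.84) lost its call without any 1 of the 4 libraries (-0.72 to -0.95). Of the 16 inflammatory genes of the study, CXCL3, LTB and NFKB1 were called lower and none higher (median -0.39), and LTB (0.681 and 0.384 and 2.26 and 2.56 CPM, -2.18) lost its call without TNPR2 (-1.79) and without PRTN1 (-2.27).

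The 13 genes higher in TNPR than in PRTN included secreted proteins of the acute phase and 2 of the 14 complement genes. LCN2 was at 468 and 473 CPM in TNPR and 124 and 132 CPM in PRTN (1.88 ± 0.058, limma-voom adjusted p = 9.49e-09). CXCL5 was at 25 and 26.3 CPM in TNPR and 13 and 13.2 CPM in PRTN (0.97 ± 0.076, adjusted p = 0.000138). SAA1 had 2131 and 2611 CPM in TNPR against 1015 and 1010.0 CPM in PRTN (1.22, adjusted p = 0.000138), with SAA2 (1.29) alongside. These were without overlap between the groups, as the naming rule required. C1S and C1R, the proteases of the first complement component, had 36.3 and 39.2 and 33.7 and 38.8 CPM in TNPR against 20.1 and 20 and 23.6 and 23.5 CPM in PRTN (0.91 and 0.62). C1S and C1R had not differed by the fold threshold between TNPR and TN (-0.12 and -0.24), C1S turning to 0.052 with library size alone. C1R lost its call against PRTN without TNPR2 (0.52), without PRTN1 (0.62) and without PRTN2 (0.61). COL15A1, a collagen of basement membrane zones (17.5 and 21.2 and 10.1 and 10.7 CPM, 0.89), lost it without PRTN1 (0.84), and the kinase RPS6KA2 (1.03, adjusted p = 0.0474) in 10 alternatives, among them edgeR's quasi-likelihood test (1.04), library size alone (1.05) and leaving out TNPR2 (0.84), PRTN1 (1.27) or PRTN2 (0.81). The largest log2 fold changes of the 13 were those of 2 genes with clone names and, named after its values were seen, PI3, an elastase inhibitor at a low level (2.25 and 2.05 CPM in TNPR, 0.347 and 0.73 CPM in PRTN, 2.07). No gene of the 21 of JAK-STAT signalling or of the 28 of histone deacetylation was called between the orders. Of all genes 0.0534% were called higher and 0.107% lower, so that this says little about lists of this size.

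Some genes known from macrophages and other immune cells were among the 26 lower ones, and they are named here after their values were seen. MRC1, the mannose receptor, PLA2G7, a phospholipase of macrophages, and CCL24, an attractant of eosinophils, had no count in TNPR1, TNPR2, TN1 or TN2. In PRTN1 and PRTN2 the level of MRC1 was 0.376 and 0.213 CPM, that of PLA2G7 0.289 and 0.304 CPM and that of CCL24 1.01 and 0.73 CPM. HLA-DRA, a chain of HLA class II, was at 0.0296 and 0 CPM in TNPR and 1.01 and 0.821 CPM in PRTN. All 4 were thus at or close to 0 in TN and TNPR and low in PRTN. They had no count in Ctrl and passed the filter through libraries of other groups. Under the alternatives run, MRC1 lost its call in 8, HLA-DRA in 6, PLA2G7 in 5 and CCL24 in 4. The summed level of the 12 macrophage markers was 31.5 and 37.4 CPM in TNPR and 30.8 and 30.1 CPM in PRTN, of which CD68 made up 27.7 and 32.3 CPM in TNPR and 23.1 and 24 CPM in PRTN. Between TNPR and PRTN 1 of the 9 tested markers, MRC1, was called lower and none higher (median -0.54). MRC1 passed the filter only through PRTN and butyrate libraries, so that its direction against TNPR was fixed beforehand. Against TN, whose libraries both comparisons share, 7 of the 9 were higher in PRTN (median 2.77), beside 23.9% of all genes. In TNPR 4 were higher (median 1.62). Markers without a count in TN passed the filter only through other libraries, so that a rise was their only possible direction. PTPRC, the marker of all leukocytes, had no count in TN or TNPR and was at 0.0289 and 0.152 CPM in PRTN. The part of macrophage RNA in PRTN was not tested.

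**Figure D4:**
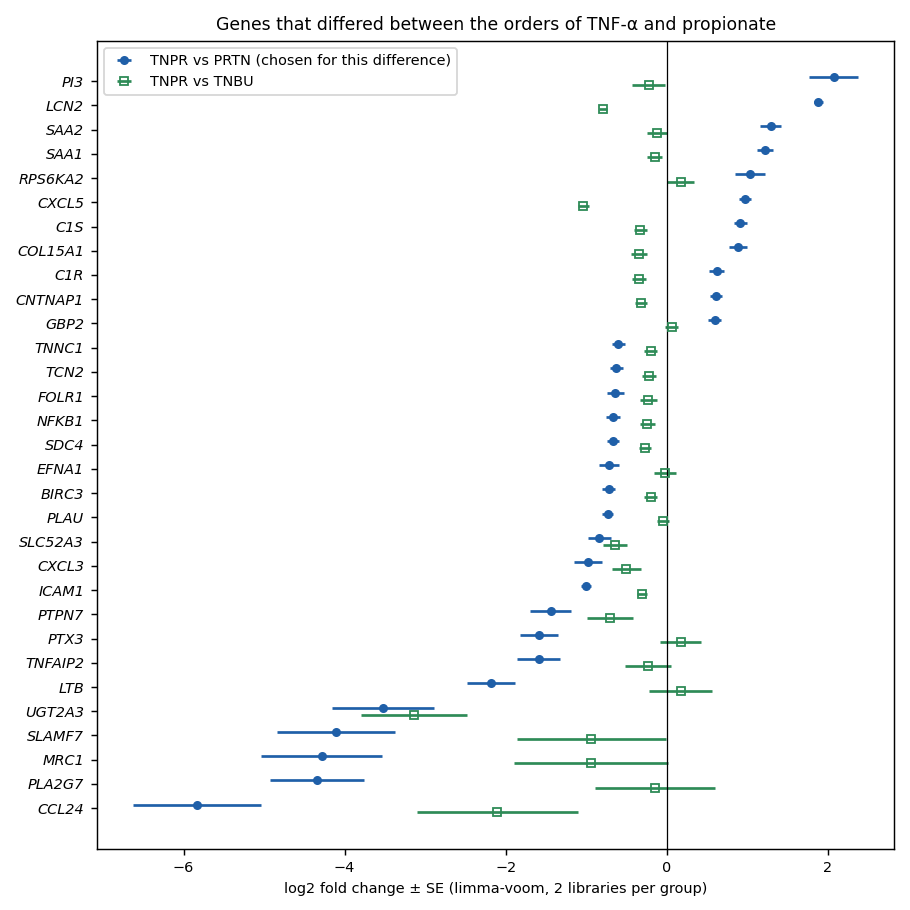
The log2 fold change with its standard error (horizontal axis) is shown for named protein-coding genes that differed between TNPR and PRTN, as filled blue circles for TNPR against PRTN, the difference for which they were chosen, and as open green squares for TNPR against TNBU. LCN2 and CXCL5 lie to the right for the first and to the left for the second comparison.

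Propionate and butyrate, both given after TNF-α, were compared at the doses used, 15 mM and 3 mM, so that compound and dose cannot be told apart. Butyrate has a carbon chain 1 carbon longer than propionate. 2 genes differed, both lower after propionate (0.00822%), and 0 were higher by limma-voom. At an unadjusted p under 0.05 there were 301 higher and 418 lower. edgeR's quasi-likelihood test called 0 and 2, and DESeq2 1 and 8. CXCL5 was at 25 and 26.3 CPM in TNPR and 52.6 and 52.5 CPM in TNBU (-1.04 ± 0.065, 95% interval -1.18 to -0.89, adjusted p = 4.23e-05). LCN2 was at 468 and 473 CPM in TNPR and 794 and 839 CPM in TNBU (-0.79 ± 0.053, 95% interval -0.91 to -0.68, adjusted p = 4.23e-05). In both genes the replicates were close together and the groups did not overlap, as the naming rule required. Both calls were lost when only the 4 libraries entered the fit. The 16 inflammatory genes differed by -0.50 to 0.59 on the log2 scale between the SCFAs, with a smallest adjusted p of 0.489. Their 95% intervals, not adjusted for the number of genes, reached from -0.94 to 1.94 and held 0 for 14 of the 16, with a median half-width of 0.33. The exceptions were CXCL3 (-0.50, -0.90 to -0.10) and NFKB1 (-0.24, -0.44 to -0.04). The interval was wide for CSF2, from -0.76 to 1.94 (3.79 and 0.672 CPM in TNPR, 1.33 and 0.896 CPM in TNBU).

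TNPR1 and TNPR2 differed more than the replicates of TN. Of 10047 genes with at least 10 CPM, 88 (0.876%) differed over 1.5-fold between TNPR1 and TNPR2, against 27 in TN, 136 in TNBU, 25 in PRTN and 7 in Ctrl. The median absolute log2 difference was 0.106 in TNPR, 0.0852 in TN and 0.0450 in PRTN. Immediate early genes, which growth factors and stress switch on within minutes, were prominent among them. Of the 28 genes of that list 12 differed over 1.5-fold between the TNPR libraries, against 6 in TN, 4 in TNBU, 3 in PRTN and 0 in Ctrl. In TNPR 22 of the 28 were higher in replicate 1, as were 21 in TN, 19 in PRTN and 19 in TNBU, but 7 in Ctrl. EGR3 was at 19.6 and 1.7 CPM, DUSP2, a phosphatase of MAP kinases, at 31.9 and 6.91 CPM and NR4A1, an orphan nuclear receptor, at 75.7 and 18.2 CPM in TNPR1 and TNPR2. Each was several-fold higher in TNPR1. The zinc finger factor EGR2 (22.5 and 5.28 CPM), ZFP36, which destabilizes cytokine mRNA (30.7 and 11.6 CPM), the AP-1 members FOS (254 and 99.7 CPM) and FOSB (56.7 and 23.7 CPM), the stress factor DDIT3 (29.6 and 12.4 CPM) and TNFSF10 (44.8 and 19.1 CPM) were also higher in TNPR1. NPPB, the B-type natriuretic peptide, was lower in TNPR1 (62.3 and 145 CPM). Between TNPR and TN the list had 11 rises and 4 falls (median 0.51), but 7 rises without TNPR1 and 17 without TNPR2. DUSP6, a phosphatase of ERK, rose with both libraries in place (17.8 and 14.8 to 91.1 and 77.4 CPM, 2.38 ± 0.12, limma-voom adjusted p = 6.33e-09), with NR4A2 (2.48) and NR4A3 (1.94), and the AP-1 member FOSL1 fell from 84.7 and 70.4 to 15.5 and 9.56 CPM (-2.66). On the first principal component TNBU1 and TNBU2 lay at 47.6 and 57.3, close to TNPR1 and TNPR2 at 47.4 and 57.4. What the libraries of one number may share was not tested.

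**Figure D5:**
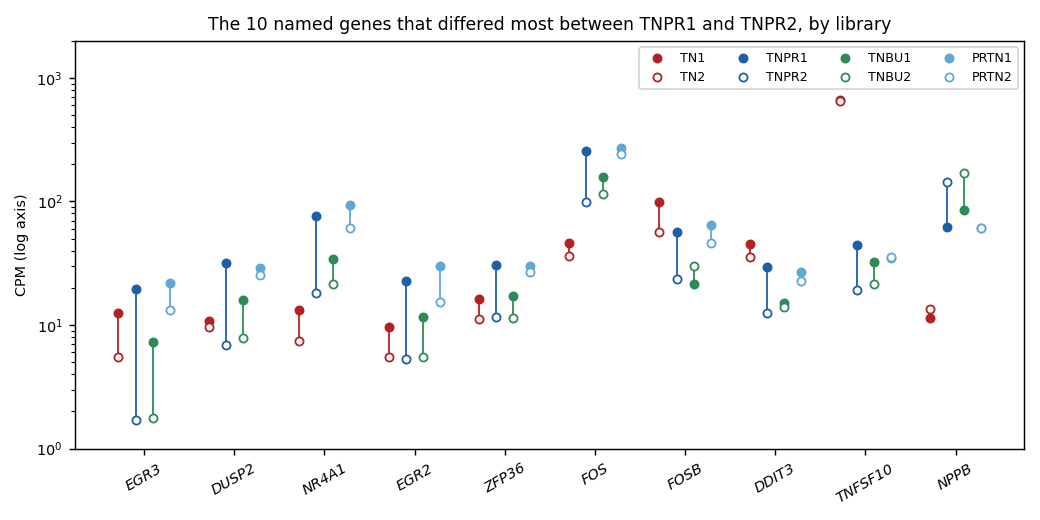
CPM on a log axis is plotted for the 10 named genes that differed most between TNPR1 and TNPR2, in both libraries of TN, TNPR, TNBU and PRTN, with replicate 1 filled, replicate 2 open and a line joining them. The TNPR lines are the longest for EGR3 and DUSP2, and in TNPR the filled point lies above the open one in each gene but NPPB.

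Markers of cells other than tubular epithelium were examined, since several rises are of genes known from such cells. Of all genes tested, 24.9% rose and 16.9% fell in TNPR against TN. A marker without a count in either TN library could only rise, as it passed the filter through other libraries alone. This bears most on the lymphocyte markers, which were at or close to 0 in TN. For endothelium 10 of 12 markers were tested and all 10 rose, and their summed level went from 37.3 and 40.3 CPM in TN to 111 and 107 CPM in TNPR, led by ESAM, EGFL7 and TIE1, while the defining receptor KDR and EMCN were at 0 in TN and TNPR. For fibroblasts 7 of 11 tested rose and 2 fell, and the sum went from 54.5 and 56.9 to 223 and 221 CPM, led by COL1A1, LUM and CSPG4. The falls of fibroblast markers numbered 1 without TN1, without TNPR1 or without TNPR2. For macrophages 4 of 9 tested rose, 2 without TN1 or without TN2, with sums of 31.1 and 34.5 CPM in TN and 31.5 and 37.4 CPM in TNPR, mostly CD68, CD14 and CSF1R. PTPRC, CD163 and MRC1 were at 0. Lymphocyte markers summed to 0 and 0.179 CPM in TN and 0.829 and 0.991 CPM in TNPR, with PTPRC and MS4A1 at 0, and 2 of 6 tested rose, 1 without TN1 or without TN2. Among the 12 epithelial markers 6 rose and 5 fell. KRT19 rose from 4.47 and 4.59 to 82.5 and 82.3 CPM (4.18 ± 0.10, limma-voom adjusted p = 1.03e-10), with CD24 (1.34) and KRT18 (0.67), against the falls of PAX8, CDH6 and GGT1 among others. The part of other cells in the collagen and neuronal rises was not tested.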

How the data were processed

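The authors deposited expected counts per gene (RSEM, GENCODE 26, GRCh38), which they made from stranded poly(A) libraries aligned with STAR 2.6.1a. Reads were checked with FastQC 0.11.5. The RSEM version and the strand setting are not given in the sources used here. The counts were not scaled, and 19.3% are not whole. Genes with a geometric mean under 1 (1 added per count) were left out, 33936 of 58278. limma-voom (limma 3.58.1, edgeR 4.0.16 for TMM, R 4.3.3) was fitted to all 12 libraries with 6 group means, and p-values were adjusted by Benjamini-Hochberg over 24342 genes. A gene was called at a fold change over 1.5 and adjusted p under 0.05. In such values 0.5 counts are added before logarithms. A fold change given as log2 is followed by its standard error after ±. edgeR's quasi-likelihood test and DESeq2 1.42.0 (on rounded counts), other scalings and filters, a replicate block and leaving out single libraries were alternatives. The script was tested on simulated data. The general protocol text of the labels names thapsigargin and JQ1, whereas each library's own label names TNF-α and the SCFA, and the latter was followed.

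Named were the 15 largest rises and falls against TN (5 CPM or more, no overlap), up to 8 each way against PRTN and TNBU, the 10 genes that differed most between TNPR1 and TNPR2, the study's 16 inflammatory genes, and list members with small adjusted p. The comparison, the lists and the members were chosen with earlier results of these data known, and some members were named after their values were seen. Positions are from GENCODE 44, and gene starts for promoters from RefSeq. All intervals cover the spread between these libraries only. Replicate numbers were not taken as pairs, as the labels give no shared day or batch.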

Additional observations from a re-analysis of the deposited data

Results flagged for a closer look

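Some genes differed between TNPR and PRTN by the test of that difference itself, in which the order of treatments and the time after TNF-α cannot be told apart. Among those higher with propionate after TNF-α (13 in all), the log2 fold changes of LCN2 (1.88), SAA2 (1.29), SAA1 (1.22), RPS6KA2 (1.03), CXCL5 (0.97), C1S (0.91), COL15A1 (0.89) and C1R (0.62) differed. Among those lower (26 in all) were TNFAIP2 (-1.59), PTX3 (-1.59), ICAM1 (-1.0), CXCL3 (-0.98), SLC52A3 (-0.84), PLAU (-0.73), BIRC3 (-0.72) and EFNA1 (-0.71). Under the alternatives run, RPS6KA2 lost its call in 10, CXCL3 and SLC52A3 in 8 each, TNFAIP2 and EFNA1 in 6 each, PTX3 and C1R in 4 each, COL15A1 in 2, and SAA2 and BIRC3 in 1 each. Between propionate and butyrate after TNF-α, CXCL5 (-1.04) and LCN2 (-0.79) differed by the test of TNPR against TNBU.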

How the results depend on the processing

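The counts against TN and Ctrl stayed within 1.5 times of their values under every alternative run except the fold threshold: lower genes numbered 2290 against TN and 2296 against Ctrl over 2-fold, and 6340 and 6233 with no fold threshold. Leaving out single libraries gave 4730 to 5726 higher and 3724 to 4292 lower genes against TN. The counts against PRTN moved more. The 13 higher genes became 23 with no low-count filter, 4 with only the groups compared, 22 with sample quality weights, 566 unadjusted, 7 over 2-fold, 20 with no fold threshold and 5 to 28 without single libraries. The 26 lower genes became 15 with edgeR, 17 with filterByExpr, 3 with only the groups compared, 377 unadjusted, 16 over 2-fold, 44 with no fold threshold and 2 to 46 without single libraries. Against TNBU, 0 higher genes became 1 with DESeq2, 4 with no filter, 301 unadjusted, 1 with no fold threshold and 0 to 1 without single libraries, and 2 lower genes became 8, 9, 418, 4 and 2 to 4 in that order, 0 with only the groups compared and 1 over 2-fold. The cause was not tested. Counts of list members stayed within 1.5 times in 1095 cases and moved further in 53. With library size alone NFKB2 (0.075), RELA (0.13) and C1S (0.052) changed sign against TN. Beside 2 libraries a group, the standard error (median 0.208 on the log2 scale for TNPR against TN) limits what could be seen.

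With the replicate number as a block the calls were 6110 higher and 4117 lower against TN, 5764 and 4072 against Ctrl, 12 and 18 against PRTN and 0 and 2 against TNBU. Against PRTN, CXCL3 (-0.97), EFNA1 (-0.71), RPS6KA2 (1.01) and MRC1 (-4.31) were not called with the block. Deviations of same-numbered libraries correlated at 0.240 between TNPR and TNBU and at -0.079 to 0.052 in the other 14 pairs of groups, so the numbers were not taken as pairs.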
